A study of Mus musculus with 22 samples.

Results

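The 10 genes described here encode the core of the transforming growth factor beta (TGF-beta) pathway in the mouse. They are the ligand genes Tgfb1, Tgfb2 and Tgfb3, the receptor genes Tgfbr1, Tgfbr2 and Tgfbr3, and the SMAD genes Smad2, Smad3, Smad4 and Smad7. The genes were chosen by name, as 10 of the 46882 genes in the deposited table, and their values were read in normal skin, in cultured MC38 cells and in 4 groups of MC38 tumors. All 10 passed the filter on low values, a mean of at least 5 normalized counts, in every fit.

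MC38 is a colon carcinoma cell line that was chemically induced in C57BL/6 mice. The study's introduction names dimethylhydrazine as the agent and its methods name methylcholanthrene. Its authors reported that the line carries mutations in Smad2, Smad4, Tgfb2 and Acvr2a but not in Tgfbr2. The RNA levels given here do not show the effect of these mutations. Tumors had been grown from MC38 cells injected under the skin of the left flank of female mice, 8 to 12 weeks old, that carried both Rag1 alleles (wild type, C57BL/6N) or were labelled RAG1-/- (B6.129S7-Rag1tm1Mom/J, a strain without mature T and B cells). Wild-type tumors were taken on day 23 and day 46 and tumors labelled RAG1-/- on day 13 and day 23, with 3 tumors in each of these 4 groups, no treatment named in the labels, and a piece of each tumor used for RNA. Skin came from 2 wild-type C57BL/6N mice of the same age at day 23, and the 2 libraries of MC38 cells, labelled day 0, are not said to be separate cultures, so that their spread may be technical. Day and host cannot be told apart for day 13 and day 46, since each was sampled in 1 host.

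The 3 TGF-beta ligands are made as precursors that stay in a latent complex with their own propeptide until integrins, proteases or thrombospondin release them. An active ligand dimer binds the type II receptor TGFBR2, which recruits and phosphorylates the type I receptor TGFBR1, while TGFBR3, also called betaglycan, presents the ligand and is needed most for TGF-beta 2. The activated receptor phosphorylates SMAD2 and SMAD3, these join SMAD4 and enter the nucleus, and SMAD7, itself induced by the pathway, blocks the receptor again. In tumors the pathway is known for restraining the growth of epithelial cells, for driving matrix production by fibroblasts and for dampening immune cells.

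The libraries held 5589151 to 26134241 reads on genes. QuantSeq reads come from the 3′ end of a transcript, so a normalized count stands for transcripts rather than for transcript length. Levels were compared for the same gene between groups. The exception is the share of each ligand gene among the ligand reads, which takes the 3 genes as read equally well. Whether they were was not tested. A floor of 3 reads lay between 1.33 and 6.38 normalized counts. Poisson intervals vary only the MC38 reads and take the mean of the other group as fixed. They and the floors cover counting error only, since no molecular identifiers are described. Limma intervals rest on the spread between libraries. Rag1 had 1 to 12 reads in each of the 6 tumors labelled RAG1-/-, 0 in 5 wild-type tumors and 1 in the other. Where the allele is altered relative to these 3′ reads is not given in the sources used here, so that Rag1 reads do not check the label. Cd3e, which encodes a chain of the T-cell receptor complex, had 0 reads in the 6 tumors labelled RAG1-/- and 4 to 37 reads in the wild-type tumors. The labels call the tumor samples tumor cells, but the sum of 7 macrophage markers was 12787 to 25839 normalized counts in them and 43.6 to 66.5 in MC38 cells. MC38 cells had a sum of 4.28 to 7.82 for the 6 markers of intestinal epithelium (Epcam, Krt8, Krt18, Cdh1, Vil1 and Cdx2), with 2 of the 6 at 0 reads in both libraries. The sum of 4 skeletal muscle markers was 7.40% and 6.58% of the skin mean in replicates 1 and 3 of the RAG1-/- tumors of day 13, and epidermal markers were highest among tumors in replicate 2 of the wild-type tumors of day 23, at 0.637% of skin. These 3 tumors were left out together, which leaves 1 tumor in the RAG1-/- group of day 13, and the results that then changed are given below. They are called the 3 tumors with muscle or epidermal transcripts, although other tumors held such transcripts too. Muscle markers were 0.995% and 0.988% of the skin mean in replicates 2 and 3 of the wild-type tumors of day 46, which stayed in.

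The 3 ligand genes lie on different chromosomes of GRCm38: Tgfb1 on chromosome 7 (25687002 to 25705077, plus strand), Tgfb2 on chromosome 1 (186622792 to 186705989, minus strand) and Tgfb3 on chromosome 12 (86056745 to 86079041, minus strand). Tgfbr1 lies on chromosome 4 (47353222 to 47414931, plus strand), Tgfbr2 on chromosome 9 (116084293 to 116175360, minus strand), Tgfbr3 on chromosome 5 (107106570 to 107289629, minus strand) and Smad3 on chromosome 9 (63646767 to 63757994, minus strand). Over the last 500 exonic bases, where the 3′ reads are expected, no other annotated gene overlapped any of the 10 genes on either strand. The RefSeq promoter table of GRCm38.p6 held 5 of the 10 genes (Tgfb1, Tgfb2, Tgfbr1, Tgfbr2 and Smad3). The 250 bases before the start of Tgfb1, Tgfb2 and Tgfbr1 are shown because these genes followed different patterns over skin, MC38 cells and tumors, with capitals marking every match, on either strand, to a GC box, a TATA box, a SMAD element, an AP-1 site or a cyclic AMP response element, whose letters are given after the sequences.
Tgfb1, chr7:25686752-25687001, plus strand: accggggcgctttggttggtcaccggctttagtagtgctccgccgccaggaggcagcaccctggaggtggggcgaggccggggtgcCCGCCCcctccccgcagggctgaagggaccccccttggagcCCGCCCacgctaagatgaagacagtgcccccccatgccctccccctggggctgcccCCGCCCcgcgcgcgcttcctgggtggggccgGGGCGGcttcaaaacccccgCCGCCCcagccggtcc
Tgfb2, chr1:186705990-186706239, minus strand: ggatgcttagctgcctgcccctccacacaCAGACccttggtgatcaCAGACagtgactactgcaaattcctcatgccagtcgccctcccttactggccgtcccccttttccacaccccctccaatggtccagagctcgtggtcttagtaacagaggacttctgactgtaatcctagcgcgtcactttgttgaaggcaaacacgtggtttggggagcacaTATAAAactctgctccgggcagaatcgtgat
Tgfbr1, chr4:47352972-47353221, plus strand: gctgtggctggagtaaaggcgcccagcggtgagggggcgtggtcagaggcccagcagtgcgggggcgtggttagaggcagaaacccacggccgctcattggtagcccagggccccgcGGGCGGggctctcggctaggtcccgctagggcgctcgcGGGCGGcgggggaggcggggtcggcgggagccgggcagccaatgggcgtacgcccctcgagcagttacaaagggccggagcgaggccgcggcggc

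The window of Tgfb1 was rich in G and C (75.2%) and held 5 GC boxes and no TATA box. The Tgfbr1 window printed was similar, with 74.8% G and C and 2 GC boxes. A second window listed for Tgfbr1, at a start farther along the gene (chr4:47385966-47386215), had 52.8% G and C, no GC box and 1 SMAD element. The window of Tgfb2 was 53.6% G and C, near the median of 52.4% over all 32851 windows of the table, and held a TATA box close to its start and 2 matches to the SMAD element, both in its upstream part. Among all windows, on either strand, the GC box GGGCGG was found in 32.7%, the TATA box TATAAA in 12.4% and the SMAD element CAGAC in 42.2%. The AP-1 site TGACTCA was found in 4.46%, and the cyclic AMP response element TGACGTCA in 1.55%, and none of these motifs holds another. These matches describe letters only.

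Tgfb3, whose product shares its receptors with TGF-beta 1, was higher in tumors than in MC38 cells in both hosts. It stood at 98.4 and 113 normalized counts in MC38 cells. RAG1-/- tumors of day 13 had 517, 370.3 and 506, and those of day 23 had 168, 347 and 913. Wild-type tumors of day 23 had 922, 523 and 713, and those of day 46 had 539, 419.6 and 1121. Every tumor was above both MC38 libraries, and RAG1-/- day 23 replicate 1 was the lowest tumor. In bulk RNA, fewer or more cells of a type and a different amount of RNA per cell cannot be told apart. Against MC38 cells, Tgfb3 was 6.25-fold higher in wild-type tumors (log2 fold change 2.64, standard error (SE) 0.44, limma adjusted p = 0.000178) and 3.91-fold higher in tumors labelled RAG1-/- (1.97, SE 0.44, limma adjusted p = 0.00309). The call in RAG1-/- tumors was lost without MC38 replicate 1 (log2 fold change 1.86, limma adjusted p = 0.0545).

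Tgfb2, a ligand gene expressed by stromal and epithelial cells, was high in skin and nearly absent from MC38 cells. Skin had 433 and 719 normalized counts. MC38 cells had 1.71 and 1.96, from 2 reads in each library, which is under the floor of 3 reads. Tumors of day 13 labelled RAG1-/- had 63.1, 5.56 and 26.7, and those of day 23 had 7.86, 34.0 and 13.7. Wild-type tumors had 22.1, 8.52 and 3.17 on day 23 and 61.6, 57.7 and 6.91 on day 46. All 12 tumors lay between MC38 cells and skin, without overlap with either, and values within each tumor group spread several-fold. From the 4 reads in MC38 cells, the ratio of tumors to MC38 cells was 14.6 in wild-type hosts (95% Poisson interval 5.71 to 53.6) and 13.8 in RAG1-/- hosts (5.38 to 50.6). Both intervals leave out the spread between tumors. On the scale of log2(normalized count + 1) the differences were 2.61 (SE 0.90, limma adjusted p = 0.0383) and 2.78 (SE 0.90, limma adjusted p = 0.0325). Each of these calls held in 11 of 20 alternatives, and a pseudocount of 5 or the loss of either MC38 library was among those that ended it, as was the loss of 1 of several tumors (wild-type day 23 replicates 1 and 2 and day 46 replicates 1 and 2, RAG1-/- day 13 replicates 1 and 3 and day 23 replicate 2). Without the 3 tumors with muscle or epidermal transcripts the call in RAG1-/- tumors also ended, at a difference of 1.88. That fit holds only 1 RAG1-/- tumor of day 13, with 5.56 normalized counts.

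Tgfb1, the ligand gene best known from immune cells and platelets, varied least of the ligand genes between skin, cells and tumors. Skin had 57.6 and 65.0 normalized counts and MC38 cells 63.3 and 32.3. Among RAG1-/- tumors there were 109, 111 and 80.0 normalized counts on day 13 and 60.2, 66.0 and 57.0 on day 23. Wild-type tumors had 150.5, 63.1 and 76.1 on day 23 and 90.9, 113 and 69.7 on day 46. The wild-type tumors, at 93.9 ± 33.0 (SD, n = 6), overlapped MC38 cells, at a mean of 47.8, because 1 tumor of day 23 lay just under MC38 replicate 1. The difference of 0.97 (SE 0.34) passed the threshold (limma adjusted p = 0.0434) but did so in 11 of 20 alternatives, and it was 0.50 without MC38 replicate 2 (limma adjusted p = 0.529). It also missed without wild-type day 23 replicate 1 or day 46 replicate 1 or 2. For RAG1-/- tumors the difference from MC38 cells was 0.77 (SE 0.34, limma adjusted p = 0.121). Platelet markers (Pf4, Ppbp, Itga2b, Gp9 and Gp1bb) summed to 40.1 to 44.5 normalized counts in MC38 cells, 940.4 to 1308 in skin and 659 to 2139.9 in tumors. Most of the sum in tumors was Pf4, at 608 to 2049, against 5.99 and 1.96 in MC38 cells. Of the 4 markers tested, 1 was called higher than in MC38 cells in each host, where 18.3% and 15.8% of all genes were. The sum therefore stands mainly for 1 gene. The part of these markers in the Tgfb1 values was not tested.

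**Figure D1:**
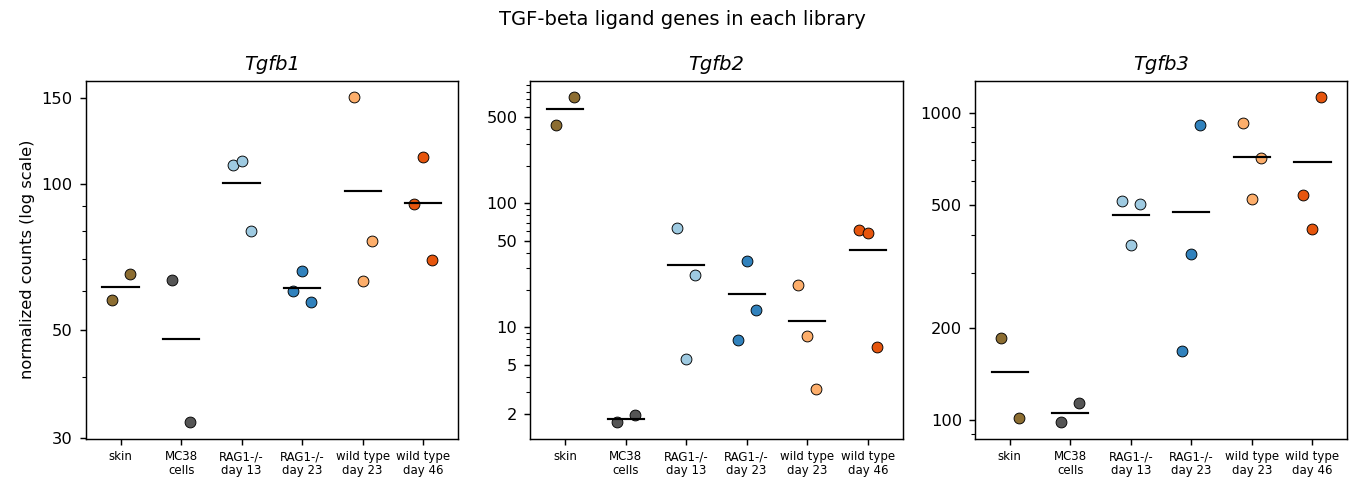
Normalized counts (log scale, a separate axis for each gene) of Tgfb1, Tgfb2 and Tgfb3 in each of 16 libraries, grouped as skin, MC38 cells, RAG1-/- tumors of day 13 and day 23 and wild-type tumors of day 23 and day 46. Points are libraries and bars are group means. Tgfb2 lies at 433 and 719 in skin, under 2 in MC38 cells and between 3.17 and 63.1 in tumors, whereas Tgfb3 lies above MC38 cells in every tumor.

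The share of each gene among the reads of the 3 ligand genes does not depend on a library's size factor. Tgfb2 took 64.1% and 81.2% of these reads in skin, 1.05% and 1.32% in MC38 cells, and 0.400% to 9.77% in tumors. Tgfb3 took 27.4% and 11.5% in skin, 60.2% and 76.8% in MC38 cells and 71.0% to 93.6% (median 80.3%) in tumors. The most abundant ligand reads were thus those of Tgfb2 in both skin libraries and those of Tgfb3 in the 14 others. The Tgfb3 share differed by 62.2 percentage points between tumors and skin (two-sided exact permutation test, 12 against 2, p = 0.022, the smallest this design allows, and 0.0989 after adjustment over 9 such comparisons). Between wild-type and RAG1-/- tumors it differed by 4.93 points (exact permutation p = 0.303, adjusted 0.341), and wild-type tumors lay between 71.0% and 93.6% and RAG1-/- tumors between 71.1% and 92.8%.

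Tgfbr1, the gene of the type I receptor that carries the signal into the cell, had the smallest adjusted p of the 10 genes in the comparison of tumors with MC38 cells. MC38 cells had 195 and 198 normalized counts and skin 451 and 371. RAG1-/- tumors had 592, 693 and 741 on day 13, and on day 23 they had 509, 685 and 725. Wild-type tumors had 825, 630.0 and 649.7 on day 23 and 543, 733 and 664 on day 46. The lowest tumor, at 509, stood above every skin and MC38 library, and the 4 tumor groups overlapped each other. Tgfbr1 was 3.38-fold higher in wild-type tumors than in MC38 cells (log2 fold change 1.76, SE 0.18, limma adjusted p = 4.18e-07) and 3.30-fold higher in RAG1-/- tumors (1.72, SE 0.18, limma adjusted p = 6.28e-07), and both calls held in 20 of 20 alternatives. Macrophage markers also stood above MC38 cells in every tumor, with Adgre1 and Mrc1 at 0 reads in both MC38 libraries, and the sum of endothelial markers (Pecam1, Cdh5, Kdr, Tek, Emcn and Vwf) was 9.41 to 13.7 in MC38 cells and 454 to 1246 in tumors. Their part in the difference was not tested.

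Tgfbr2, the gene of the ligand-binding type II receptor, had its highest group mean in skin and its lowest in MC38 cells. Skin had 1266 and 1192 normalized counts and MC38 cells 472 and 386. Tumors labelled RAG1-/- had 630.1, 637 and 634 on day 13 and 304, 700.1 and 658 on day 23. Wild-type tumors had 873, 732 and 556 on day 23 and 496, 835 and 996 on day 46. RAG1-/- day 23 replicate 1 was under both MC38 libraries, and the wild-type tumors were above both. The difference between wild-type tumors and MC38 cells was 0.76 (SE 0.29) and missed the threshold (limma adjusted p = 0.0553), with a 95% interval of 0.16 to 1.37. It passed by DESeq2 (adjusted p = 0.0214) and in limma without wild-type day 23 replicate 3 or day 46 replicate 1 (adjusted p = 0.0414 and 0.0131). In RAG1-/- tumors it was 0.42 (limma adjusted p = 0.318).

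Tgfbr3, the gene of the co-receptor betaglycan, stood higher in both MC38 libraries than in most tumors. Skin had 1085 and 759 normalized counts and MC38 cells 719 and 654. Tumors labelled RAG1-/- had 301, 399 and 454 on day 13 and 819.5, 585 and 922 on day 23. Wild-type tumors had 358, 407 and 428 on day 23 and 421, 592 and 1060.4 on day 46. The 3 tumors of each earlier group lay under both MC38 libraries, and the 2 later groups overlapped them. Against MC38 cells the differences were −0.44 in wild-type tumors (SE 0.26, limma adjusted p = 0.236) and −0.35 in RAG1-/- tumors (SE 0.26, limma adjusted p = 0.379).

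**Figure D2:**
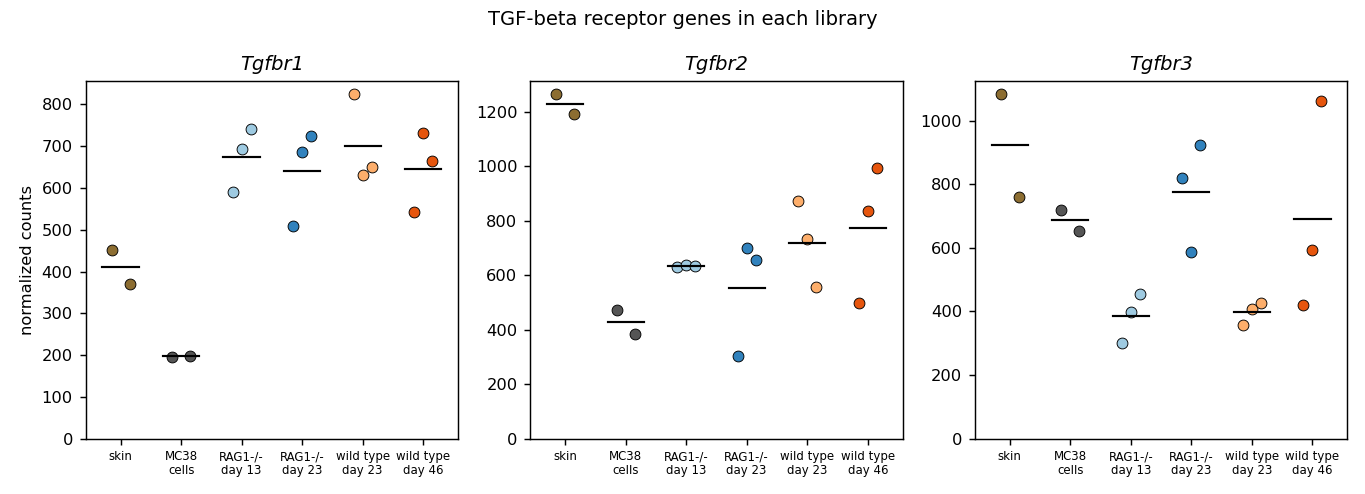
Normalized counts (linear axes from 0) of Tgfbr1, Tgfbr2 and Tgfbr3 in each of 16 libraries, with points for libraries and bars for group means. Tgfbr1 rises from 195 and 198 in MC38 cells to 509 or more in every tumor, Tgfbr2 is highest in skin (1192 and 1266), and Tgfbr3 lies at 301 to 454 in RAG1-/- tumors of day 13 and at 585 to 922 in those of day 23.

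Smad7, the gene of the inhibitory SMAD, was the SMAD gene, of the 4, that passed the test between tumors and MC38 cells. MC38 cells had 386 and 391 normalized counts and skin 366 and 256. Tumors of RAG1-/- mice had 658, 739 and 598 on day 13 and 762, 800.1 and 585 on day 23. Wild-type tumors had 602, 637 and 865 on day 23 and 529.7, 504 and 465 on day 46. All 12 tumors were above every MC38 and skin library, and the 3 wild-type tumors of day 46 were the lowest of the 12. Smad7 was 1.51-fold higher in wild-type tumors than in MC38 cells (log2 fold change 0.60, SE 0.17, limma adjusted p = 0.0141) and 1.76-fold higher in RAG1-/- tumors (0.82, SE 0.17, limma adjusted p = 0.00156). The first call was lost without either MC38 library (limma adjusted p 0.112 and 0.106), with the value nearly unmoved (0.59 and 0.61).

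Smad4, the gene of the common partner of the receptor-activated SMADs, did not pass the test between tumors and MC38 cells in either host. Skin had 1353 and 1404 normalized counts and MC38 cells 2158 and 2218. In RAG1-/- mice the tumors had 2121, 1895 and 1699 on day 13 and 2201, 2536 and 2108 on day 23. Wild-type tumors had 1673, 2342 and 2280.1 on day 23 and 2141, 2246 and 2129.6 on day 46. MC38 cells lay inside the range of the tumors, and both skin libraries lay under it. The differences from MC38 cells were −0.04 in wild-type tumors (95% interval −0.35 to 0.26) and −0.07 in RAG1-/- tumors (−0.38 to 0.23).

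Smad2 and Smad3 encode the SMADs that the TGF-beta receptors phosphorylate. Smad2 had 571 and 398 normalized counts in skin and 783 and 727 in MC38 cells, and its tumor values ran from 621 to 868 (median 765) in RAG1-/- hosts and from 561 to 721 (median 672) in wild-type hosts. Smad3 had 303 and 238 in skin and 431 and 386 in MC38 cells, and ran from 229.8 to 354 (median 296) in RAG1-/- tumors and from 212 to 576 (median 328) in wild-type tumors. Neither passed the test against MC38 cells in either host, with differences of −0.20 and −0.02 for Smad2 and −0.28 and −0.48 for Smad3 (limma adjusted p 0.282 to 0.938). The 6 wild-type tumors lay under both MC38 libraries for Smad2, and the 6 RAG1-/- tumors did so for Smad3.

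**Figure D3:**
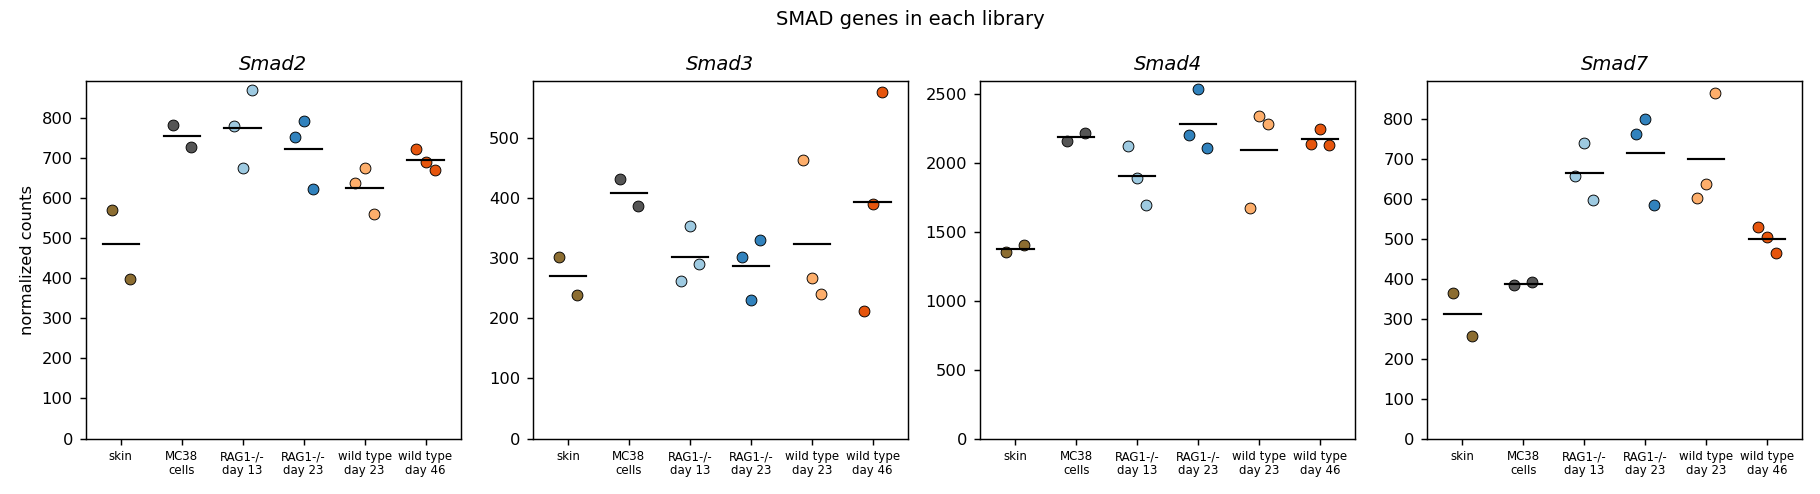
Normalized counts (linear axes from 0) of Smad2, Smad3, Smad4 and Smad7 in each of 16 libraries, with points for libraries and bars for group means. Smad7 stands at 386 and 391 in MC38 cells and at 465 or more in every tumor, while Smad4 in MC38 cells (2158 and 2218) lies within the tumors' range.

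Counted over the 10 genes, 5 were higher in wild-type tumors than in MC38 cells with an adjusted p under 0.05 in limma (Tgfb1, Tgfb2, Tgfb3, Tgfbr1 and Smad7) and 0 were lower. Of all 14708 genes tested, 27.9% were called, 18.3% as higher and 9.61% as lower. In RAG1-/- tumors 4 of the 10 were higher (the same genes without Tgfb1) and 0 lower, where 23.3% of all genes were called, 15.8% as higher and 7.55% as lower. Both comparisons use the same 2 MC38 libraries. The median log2 fold change of the 10 genes was 0.68 and 0.60, and that of all genes 0.05 and 0.06. Groups did not overlap for 6 of the 10 genes in wild-type hosts and for 5 of the 10 in RAG1-/- hosts, where 37.4% and 36.6% of all genes did not overlap. By DESeq2 and edgeR 6 and 4 genes were higher in wild-type tumors, and 4 by each in RAG1-/- tumors. Without MC38 replicate 2 the count in wild-type tumors was 2, and without MC38 replicate 1 it was 3.

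Against skin, the question is which of the 10 genes set tumors apart from normal skin of wild-type mice. No skin of RAG1-/- mice was among the libraries. Of the 10 genes, 5 were higher in the 12 tumors than in skin (Tgfb3, Tgfbr1, Smad2, Smad4 and Smad7) and 3 were lower (Tgfb2, Tgfbr2 and Tgfbr3), where 60.7% of all 16259 genes tested were called, 24.4% as higher and 36.3% as lower. For 5 of the 10 the tumors and skin did not overlap, as for 52.4% of all genes. Tgfb2 had a difference of −4.93 on the log2 scale (SE 0.88, limma adjusted p = 0.000229), and the tumors, at 25.9 ± 23.0 (SD, n = 12), did not overlap skin, at 576 ± 202 (SD, n = 2). Smad7 was 2.07-fold higher (1.05, SE 0.17, limma adjusted p = 0.000114), Smad4 1.52-fold (0.61, SE 0.13, limma adjusted p = 0.00123) and Tgfb3 3.81-fold higher (1.93, SE 0.47, limma adjusted p = 0.00241). Tgfbr1 was higher by 0.69 and Smad2 by 0.55 on the log2 scale (limma adjusted p = 0.00252 and 0.00561). Tgfbr2 fell by 0.93 (SE 0.28, limma adjusted p = 0.0103) and Tgfbr3 by 0.80 (SE 0.27, limma adjusted p = 0.0188). The median log2 fold change of all genes was −0.19 in this comparison and moved to 0.11 after rescaling to a common upper quartile and to 0.20 after rescaling to a common total, so that 5357 genes were called higher and 4791 lower, or 5753 and 4445, in place of 3968 and 5898. Under these rescalings Tgfbr2 had values of −0.62 and −0.53 (limma adjusted p = 0.0674 and 0.137) and Tgfbr3 −0.49 and −0.40 (limma adjusted p = 0.115 and 0.227), so neither call held. Each loss of a skin library ended the call of Tgfbr2, and that of Tgfbr3 ended without skin replicate 1 (−0.54, limma adjusted p = 0.272), without the 3 tumors with muscle or epidermal transcripts, and by edgeR. Without skin replicate 2, 4 of the 10 genes were called, and Tgfb3, Tgfbr1 and Smad2 were no longer among them (limma adjusted p 0.0628 to 0.163). The fibroblast markers were Pdgfra, Pdgfrb, Col1a1, Col1a2, Col3a1, Dcn, Lum and Thy1. They summed to 359918 to 418241 normalized counts in skin, 13668 to 49272 in tumors and 5159 to 5803 in MC38 cells. Lum and Thy1 had 0 reads in MC38 cells, but Col3a1 had 4040 and 3336 normalized counts there and Dcn 376 and 327. Pdgfra was higher in MC38 cells (1220 and 1250) than in skin (510 and 556), so the sum does not count host fibroblasts alone. Epidermal markers summed to 273282 to 279974 in skin and 227 to 1762 in tumors. Skeletal muscle markers summed to 80230 to 126726 in skin and 23.9 to 7660 in tumors. The part of these markers in the differences from skin, the lower Tgfb2 of tumors among them, was not tested.

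MC38 cells and skin differed in 6 of the 10 genes, with 3 higher (Smad2, Smad3 and Smad4) and 3 lower (Tgfb2, Tgfbr1 and Tgfbr2), where 62% of 16780 genes were called, 20.8% as higher and 41.2% as lower. For 8 of the 10 the libraries did not overlap, as for 82.0% of all genes, and an exact permutation test of 2 against 2 cannot go below p = 0.333. From the 4 reads in MC38 cells, the ratio of skin to MC38 cells for Tgfb2 was 316 (95% Poisson interval 123 to 1158). Tgfbr2 was 2.87-fold lower in MC38 cells (log2 fold change −1.52, SE 0.16, limma adjusted p = 0.00131) and Tgfbr1 2.07-fold lower (−1.05, SE 0.19, limma adjusted p = 0.00684). Smad4 was 1.59-fold higher (0.67, SE 0.12, limma adjusted p = 0.00632). Smad2 and Smad3 passed narrowly (limma adjusted p = 0.0481 and 0.0487), in 9 and 7 of 15 alternatives. The median of all genes was −0.40, and it moved to −0.08 with the same upper quartile and to 0.01 with the same total, where 4629 genes were higher and 6017 lower, or 4969 and 5760, in place of 3482 and 6920. With a library of either group left out, 2 or 3 of the 10 genes were called, apart from the fit without skin replicate 1, where 5 were called. That fit lost Tgfbr2 and Smad3 (limma adjusted p = 0.0629 and 0.0702) and added 1 gene that was not called with all libraries. The call of Tgfbr1 was lost without MC38 replicate 1, that of Tgfbr2 without either skin library and that of Smad4 without either MC38 library.

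Between tumors, the comparison of hosts at day 23 asks whether the pathway genes differ with and without adaptive immunity, and no member passed the test. At day 23, 0 of the 10 genes were called between wild-type and RAG1-/- tumors, where 41 genes (0.278% of 14746 tested) were called, 0.231% as higher and 0.0475% as lower in wild type. Only Tgfbr3 of the 10 had an unadjusted p under 0.05, as did 1646 of all genes. Over both days limma called 105 genes (0.712%, 0.57% higher and 0.142% lower), among them 0 of the 10, and an unadjusted p under 0.05 was found for 0 of the 10 and 1682 of all genes. By edgeR 0 of the 10 were called in each comparison, and by DESeq2 1 at day 23 and 0 over both days. Over both days Tgfb3 was at 706 ± 269 normalized counts (SD, n = 6) in wild-type and 470.1 ± 252 (SD, n = 6) for RAG1-/- (log2 fold change 0.68, 95% interval −0.02 to 1.38, limma adjusted p = 0.451). Over both days, where day and host are mixed, 4 intervals bound the difference to less than 0.5 on the log2 scale. They are those of Tgfbr1 (−0.24 to 0.31), Smad2 (−0.41 to 0.06), Smad4 (−0.20 to 0.26) and Smad7 (−0.49 to 0.04), whereas that of Tgfb2 (−1.56 to 1.23) bounds little. At day 23 alone the intervals of Tgfbr1 (−0.25 to 0.53) and Smad2 (−0.53 to 0.12) went past 0.5. Those of Smad4 (−0.46 to 0.19) and Smad7 (−0.41 to 0.34) did not. Over both days no gene of the 10 had groups that did not overlap, against 0.983% of all genes.

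Within the tumors, Tgfbr3 had the smallest unadjusted p of the 10 genes in 2 of the 4 comparisons (0.00387 and 0.00241). At day 23 it was 776 ± 173 normalized counts (SD, n = 3) for RAG1-/- and 397 ± 36.0 (SD, n = 3) for wild type, without overlap (log2 fold change −0.94, SE 0.28, limma adjusted p = 0.191, exact permutation p = 0.1, which is the lowest possible for 3 against 3). DESeq2 on the recovered reads called it (adjusted p = 0.0494), and groups failed to overlap for 16.1% of all genes in this comparison. Between day 13, at 385 ± 77.9 (SD, n = 3), and day 23 in RAG1-/- tumors the ratio of the later to the earlier day was 2.01 (log2 fold change 1.00, SE 0.28, limma adjusted p = 0.211; DESeq2 adjusted p = 0.0387). In wild-type tumors the difference between day 46 and day 23 was 0.69 (95% interval 0.11 to 1.28, limma adjusted p = 0.522). The comparisons of day 23 with day 13 and of the hosts at day 23 share the 3 RAG1-/- tumors of day 23.

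No member was called between days by limma or edgeR, and DESeq2 called Tgfbr3 in RAG1-/- tumors. Day 46 and day 23 of wild-type tumors gave 0 called genes in limma (1261 genes with an unadjusted p under 0.05, 0 called by edgeR and 41 by DESeq2), and day 23 and day 13 of RAG1-/- tumors gave 0 (1722 with an unadjusted p under 0.05, 0 by edgeR and 206 by DESeq2). In both comparisons 0% of the 14746 genes were called by limma. Smad7 averaged 499.5 ± 32.8 (SD, n = 3) in wild-type tumors of day 46 and 701 ± 143 (SD, n = 3) in those of day 23, without overlap, where groups did not overlap for 12.5% of genes (log2 fold change −0.47, 95% interval −0.85 to −0.09, limma adjusted p = 0.499). Tgfb1 was 61.1 ± 4.54 (SD, n = 3) in RAG1-/- tumors of day 23 and 100.1 ± 17.4 (SD, n = 3) in those of day 13, also without overlap, as were 19.4% of genes (−0.69, 95% interval −1.39 to 0.01, limma adjusted p = 0.432). The 2 tumors of day 13 with the most muscle transcripts had 109 and 80.0 normalized counts of Tgfb1. The third, whose muscle markers were 0.272% of the skin mean, had 111.

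**Figure D4:**
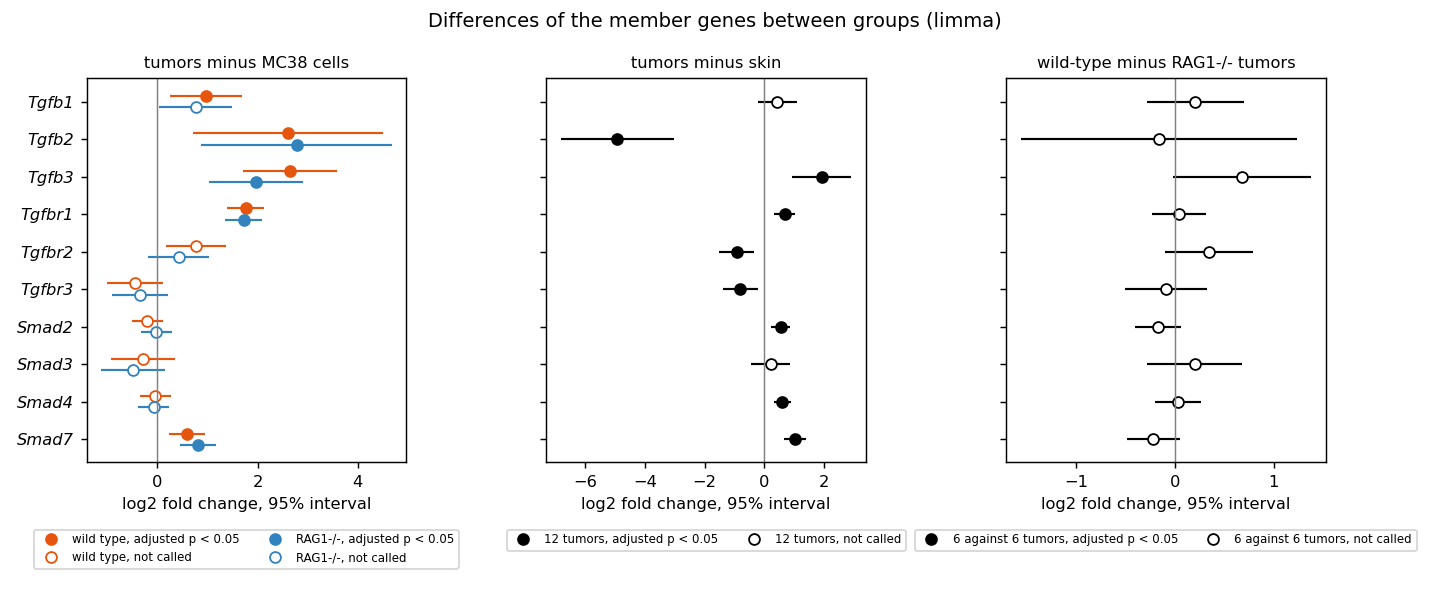
Log2 fold changes of the 10 genes from limma, with 95% intervals, for tumors minus MC38 cells in each host (left), 12 tumors minus skin (middle) and 6 wild-type minus 6 RAG1-/- tumors (right), each panel with its own axis. Filled points passed an adjusted p of 0.05. The intervals of Tgfb2 are the widest, those of Tgfbr1 against MC38 cells lie between 1.35 and 2.13, and no point is filled on the right.

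Levels of the ligand and receptor genes moved together with other genes across the 12 tumors, which is described here by Pearson's r over log2 values among the 10533 genes whose mean was 50 normalized counts or more. Tgfb2 was most like Adgrl4 (r = 0.92), Igf1 (0.91) and Thbd (0.89), of which Adgrl4 and Thbd are known from endothelium and Igf1 from fibroblasts and macrophages, and each of these had a mean of 0 in MC38 cells. Tgfbr1 was most like Cd40 (0.92), Tyrobp (0.92) and Irf5 (0.90), genes known from myeloid cells, whose means in MC38 cells were 0.428, 0 and 4.58. Tgfbr2 was most like Cd48 (0.93), a leukocyte surface protein gene, Prr14 (0.93) and Phkg2 (0.92). Tgfb3 was most like Id3 (0.95), which encodes an inhibitor of bHLH factors, Sdc2 (0.94) and Map7d1 (0.94), all of which were read in MC38 cells. Tgfbr3 was most like Igf2bp3 (0.97), Ltbp4 (0.94), whose product binds latent TGF-beta, and Alcam (0.93), and for Tgfb1 the genes were Myadm (0.90), Tpm3-rs7 (0.89) and Mdc1 (0.87). The 12 points share the tumors' depth and cell mixture, and the genes named are the 3 highest of 10533 for each gene.

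Target genes of the pathway were read next. Of 14 genes known to respond to TGF-beta, 12 exceeded MC38 cells in wild-type tumors and 11 in RAG1-/- tumors, with 0 lower in either, where 18.3% and 15.8% of all genes were higher and 9.61% and 7.55% lower. The medians were 2.08 and 1.86 on the log2 scale, against 0.05 and 0.06 over all genes. Tgfbi, a secreted matrix protein gene named for its induction by TGF-beta, had 94.1 and 66.5 normalized counts in MC38 cells and 2175 to 5029 in tumors (log2 fold change 5.41, SE 0.27, limma adjusted p = 3.23e-11 in wild-type tumors). Pmepa1, a feedback inhibitor of the pathway, had 164 and 198 in MC38 cells and 2604 to 6651 in tumors (4.78, SE 0.24, limma adjusted p = 2.29e-11 in wild-type tumors). Ctgf, which encodes a matricellular growth factor, had 4.28 and 4.89 in MC38 cells and 56.3 to 555 in tumors. Every tumor was above both MC38 libraries for these 3 genes. Acta2 and Tagln, genes of smooth muscle and myofibroblasts, were also higher (4.99 and 4.78 in wild-type tumors), and Tagln rested on 1 read in MC38 cells, for a ratio of 108 (95% Poisson interval 19.3 to 4247). Cdkn2b and Tgif1, named here after their values were seen, did not pass against MC38 cells in either host. Several of these genes are also expressed by fibroblasts and macrophages. All 7 macrophage markers were called higher than in MC38 cells in both hosts. Of 8 fibroblast markers, 7 were called higher in wild-type and 6 in RAG1-/- tumors. Pdgfra, a marker of that list, was at 1220 and 1250 in MC38 cells and 743 to 1575 in tumors. The part of both cell types was not tested.

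Against skin, 6 of the 14 target genes were higher in tumors and 5 lower, as were 24.4% and 36.3% of all genes, with a median of −0.01 against −0.19 over all genes. Snai1, which encodes a repressor of epithelial genes, was 808 ± 255 (SD, n = 12) in tumors and 112 ± 48.7 (SD, n = 2) in skin (2.85, limma adjusted p = 9.89e-07). Snai2 went the other way, at 109 ± 35.6 in tumors and 839.9 ± 45.4 in skin (−3.01, limma adjusted p = 5.66e-07). In MC38 cells 2 of the 14 genes were higher than in skin (Cdkn2b and Snai1) and 11 lower, where 20.8% and 41.2% of all genes were, with a median of −2.17 against −0.40. Within tumors 0 of the 14 were called in each of the 4 comparisons.

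**Figure D5:**
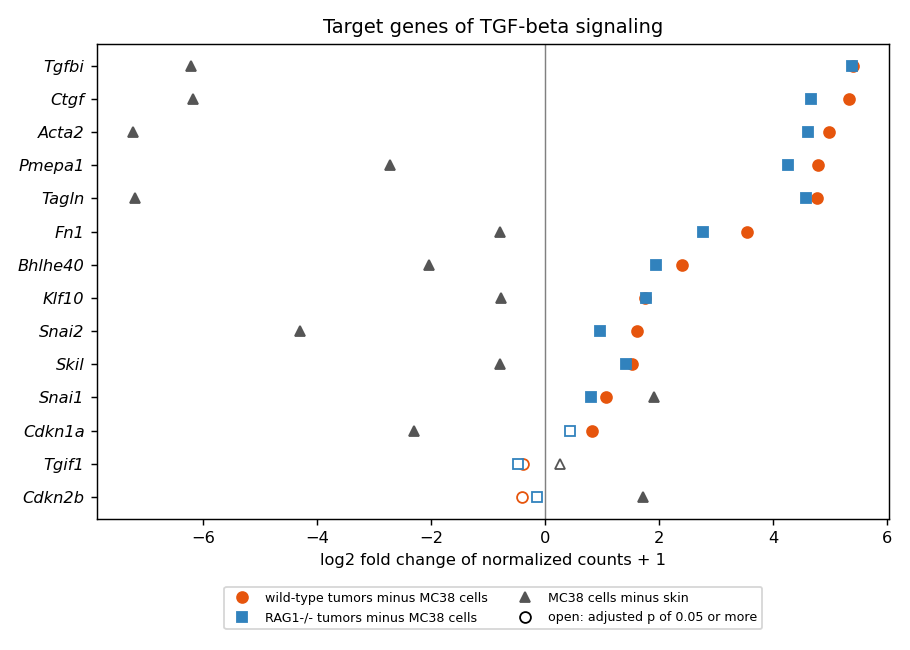
Log2 fold changes of 14 TGF-beta target genes (normalized counts + 1) in wild-type tumors minus MC38 cells (circles), RAG1-/- tumors minus MC38 cells (squares) and MC38 cells minus skin (triangles). Open symbols did not pass an adjusted p of 0.05. Of the 14 genes, 12 lie above 0 and passed in wild-type tumors, while 11 lie below 0 and passed in MC38 cells against skin.

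Genes of latency and activation hold TGF-beta in its inactive complex or release it. Of the 10 tested against MC38 cells, 4 rose and 1 fell in wild-type tumors, and 5 rose and 1 fell in RAG1-/- tumors, with medians of 0.48 and 0.56 on the log2 scale. Over all genes the shares were 18.3% up and 9.61% down for wild-type tumors and 15.8% and 7.55% in RAG1-/- tumors, so that the share of lower genes in the list was near that of all genes. Nrros, which anchors latent TGF-beta on macrophages and microglia, had 13.7 and 4.89 normalized counts in MC38 cells and 129.9 to 425 in tumors (4.89, SE 0.37, limma adjusted p = 9.91e-09 in wild-type tumors). Lrrc32, which encodes the anchor GARP of regulatory T cells, platelets and endothelium, had 0 reads in both MC38 libraries and was at least 7.95-fold higher in wild-type and at least 8.16-fold higher in RAG1-/- tumors, taking 3 reads per library as the floor. Thbs1, the gene of thrombospondin 1, which can activate the latent ligand, went the other way, with 738 and 577 in MC38 cells and means of 248 and 219.8 in wild-type and RAG1-/- tumors (−1.45 and −1.77, limma adjusted p = 0.0211 and 0.00709). Both calls of Thbs1 were lost without MC38 replicate 1, and that in wild-type tumors also without replicate 2. Against skin, 1 of 11 genes was higher and 6 lower in tumors (median −0.79; all genes 24.4% and 36.3%), and Itgb6, which encodes the beta chain of an activating integrin of epithelia, was 149 ± 10.8 (SD, n = 2) in skin, 3.45 ± 5.17 (SD, n = 12) in tumors and at 0 reads in MC38 cells. In MC38 cells 1 of 11 was higher than in skin and 8 lower (median −1.25), against 20.8% and 41.2% of all genes.

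Other ligands and antagonists of the superfamily showed 7 of 11 tested genes higher and 1 lower in wild-type tumors than in MC38 cells (median 1.75) and 5 higher and 1 lower in RAG1-/- tumors (median 1.45, or 1.09 with genes at 0 reads in MC38 cells set at their bound). Over all genes, 18.3% were up and 9.61% down for wild-type tumors and 15.8% and 7.55% in RAG1-/- tumors. Inhba, which encodes the subunit of activin A, had 179 and 135 normalized counts in MC38 cells and 309 to 603 in tumors. Inhbb, of activin B, had 0 reads in both MC38 libraries and was at least 20.1-fold higher in wild-type and at least 15.7-fold higher in RAG1-/- tumors. Bmp7, a bone morphogenetic protein gene, was 970 and 702 in skin, 0.856 and 3.91 in MC38 cells and 1.91 to 558 in tumors, with the highest value in wild-type day 46 replicate 3. Against skin 5 of 12 tested were higher and 7 lower (median −2.16), where 24.4% and 36.3% of all genes were, and in MC38 cells 4 of 13 were higher than in skin and 8 lower (median −4.24, or −2.88 with genes at 0 reads at their bound), where 20.8% and 41.2% of all genes were.

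Among other receptors of the superfamily, Acvr1, Acvrl1 and Eng were higher than in MC38 cells in both hosts, 3 of the 8 tested (medians 0.57 and 0.49), with 0 lower, where 18.3% of all genes were higher in wild-type and 15.8% in RAG1-/- tumors. Without MC38 replicate 2 the calls of Acvr1 in both hosts and of Eng in RAG1-/- tumors were lost (limma adjusted p 0.0515 to 0.238). Acvrl1 encodes ALK1, a type I receptor of endothelium and some macrophages, and it was the gene of these pathway lists that was called between hosts over both days, where 0.712% of all genes were called. It had 6.84 and 4.89 normalized counts in MC38 cells and 285 and 426 in skin. The RAG1-/- tumors had 93.1, 76.7 and 133 on day 13 and 75.9, 74.5 and 114 on day 23. Wild-type tumors had 222, 175 and 269 on day 23 and 202, 157 and 218 on day 46. The 6 wild-type tumors lay above the 6 RAG1-/- tumors, and the difference was 1.14 (SE 0.19, limma adjusted p = 0.0115). At day 23 alone, the day that both hosts share, it was 1.33 (SE 0.28, limma adjusted p = 0.0598) and did not pass. The call held in 23 of 24 alternatives and was lost, at 1.40, without the 3 tumors with muscle or epidermal transcripts. That fit holds only 1 RAG1-/- tumor of day 13. Macrophage markers summed to 12787 to 21608 in RAG1-/- and 16751 to 25839 in wild-type tumors, and endothelial markers to 480.3 to 1062 and 454 to 1246, and their part was not tested. Against skin 1 of 9 receptor genes was higher and 7 lower in tumors (median −1.34), where 24.4% and 36.3% of all genes were. In MC38 cells 0 were higher and 7 lower (median −1.64), where 20.8% and 41.2% of all genes were.

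Among 12 other SMADs and regulators tested, 2 rose and 3 fell in wild-type tumors relative to MC38 cells and 0 and 3 in RAG1-/- tumors, with medians of −0.00 and −0.04. Over all genes the shares were 18.3% up and 9.61% down for wild-type tumors, so that the share of higher genes was near that of all genes, and 15.8% and 7.55% in RAG1-/- tumors. The 3 lower genes were those of the SMAD anchor SARA (Zfyve9) and of the ubiquitin ligases SMURF1 and TRIM33 in each host, and without MC38 replicate 2 none of these calls held (limma adjusted p 0.0639 to 0.233). Smad5, a receptor-activated SMAD of the bone morphogenetic protein branch, was higher in wild-type tumors (0.51, SE 0.17, limma adjusted p = 0.0337, in 14 of 20 alternatives). Against skin 3 were higher and 6 lower (median −0.13; all genes 24.4% and 36.3%), among them Tgif2, a corepressor of SMADs, which was 424 ± 122 (SD, n = 12) in tumors and 88.1 ± 34.5 (SD, n = 2) in skin (2.26, limma adjusted p = 2.56e-06). In MC38 cells 3 of 13 were higher than in skin and 5 lower (median −0.19), near the 20.8% and 41.2% of all genes.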

How the data were processed

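RNA was measured in 16 of the series' 22 samples by QuantSeq 3′ sequencing on an Ion Proton instrument. The other table has 6 columns that match no sample label and was not used here. The deposited values are a signal per gene, read counts divided by DESeq2 size factors, which the authors made by trimming with cutadapt and Trimmomatic (reads under 22 nucleotides removed), aligning to mm10 with STAR and then Bowtie2, dropping ribosomal reads and counting with HTSeq-count. Tool versions, annotation and strand setting are not given in the sources used here. All values above 0 were whole multiples of 1 read (tolerance 0.001), so reads were recovered for edgeR 4.0.16 and DESeq2 1.42.0, run as alternatives.

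Groups were compared with limma 3.58.1 (R 4.3.3) and its mean trend, on log2(normalized count + 1). Genes entered when they averaged 5 or more over the fitted libraries. Tests were two-sided, p-values were adjusted by Benjamini-Hochberg over all genes, and the threshold was 0.05. Fold changes on this scale understate those of low genes. Fits held the 12 tumors, these with the 2 MC38 or the 2 skin libraries, or MC38 and skin alone. Scripts were tested on simulated data. Replicates differed by more than counting noise (chi-square per degree of freedom 8.42 to 87.2).

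The genes and lists were chosen with earlier results of these data known. Besides the 10 genes and Rag1, up to 4 genes of each pathway list were open to naming in each comparison, those with the largest change among genes called without overlap, and the 3 genes most like each ligand or receptor gene. Alternatives were other pseudocounts, filters, scalings and tools, a replicate block, a fit of all 16 libraries, and each library left out. Leaving out the 3 tumors with muscle or epidermal transcripts was chosen after seeing the data. Of the target genes, 1 is not reported here.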

Additional observations from a re-analysis of the deposited data

Results flagged for a closer look

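The 6 tumors of each host were examined for a single tumor far from the others, over 20 groups of 6 (10 genes in 2 hosts), by Dixon's ratio of the gap to the range with a limit of 0.625. Chance gives about 1 in 20 such groups, and 3 passed. Tgfbr2 in RAG1-/- tumors had its lowest value, 304 normalized counts, in day 23 replicate 1. Tgfbr3 in wild-type tumors had its highest value, 1060.4, in day 46 replicate 3. Smad4 in wild-type tumors had its lowest value, 1673, in day 23 replicate 1.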

How the results depend on the processing

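None of the members or list genes for which alternatives were run changed direction. Over all genes against skin, the higher and lower calls in tumors (3968 and 5898) became 5357 and 4791 with the same upper quartile and 5753 and 4445 with the same total, and the median went from −0.19 to 0.11 and 0.20. Between hosts at day 23, where limma called 41 genes, 22 were called with no filter, 15 with no trend, 22 by edgeR, 239 by DESeq2 and 13 without the 3 tumors with muscle or epidermal transcripts, and 5 to 60 with each library left out. DESeq2 called 1 of the 10 genes there (Tgfbr3). Over both days, in place of 105 genes, 48 were called with no trend, 283 by DESeq2, 25 without the 3 tumors, and 65 to 171 with each library left out. Between days, in place of 0 genes, DESeq2 called 41 in wild-type tumors and 206 in RAG1-/- tumors, among the latter 1 of the 10 (Tgfbr3), and leaving out a library gave 0 to 7 and 0 to 37. In wild-type tumors against MC38 cells, where 4100 genes were called, leaving out a library gave 2172 to 4396, and the 5 members called became 3 with no filter, 3 with no trend and 2 to 6 with a library left out. In RAG1-/- tumors against MC38 cells 2232 genes were called without the 3 tumors and 1832 to 3569 with a library left out, in place of 3428, and 2 to 4 of the 10 genes in place of 4. Against skin, 4 to 8 members were called in place of 8. For MC38 cells against skin, 6253 to 7400 genes were called in place of 10402, and 2 to 5 members in place of 6. The low counts without an MC38 or skin library come with an arm of 1 library, assumed to vary like the others. The fits without the 3 tumors likewise hold 1 tumor in the RAG1-/- group of day 13. The Tgfb3 share in tumors against skin differed by 54.3 to 70.1 percentage points with a library left out, and with 1 skin library the exact test cannot pass.

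Same-numbered tumors did not deviate together (correlations from −0.30 to 0.24), and they came from different mice, so the numbers do not pair them. With a replicate block, 39, 109, 0, 0, 3794, 3316, 9710 and 10671 genes were called in the 4 tumor comparisons, the 2 against MC38 cells, tumors against skin and MC38 cells against skin, and 0, 0, 0, 0, 5, 4, 8 and 6 of the 10 genes. Among the named list genes the block ended the call of Trim33 in RAG1-/- tumors against MC38 cells (limma adjusted p = 0.0553). Tgfb2 in MC38 cells rests on 4 reads, which limits every comparison with it.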
